A study of Homo sapiens with 6 samples.

Results

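The chaperone genes of HaCaT keratinocytes were examined: the HSP70 (HSPA), HSP90, HSP110 (*HSPH1*) and small heat shock protein (HSPB) genes, the J-protein genes (DNAJA, DNAJB and DNAJC), the mitochondrial chaperonin pair *HSPD1* and *HSPE1*, the subunits of the cytosolic chaperonin (*CCT2* to *CCT8* and *TCP1*), and the ER protein disulfide isomerases named PDIA. The rule for membership reads gene symbols alone and no measured value, and members were grouped by the start of the symbol, which gave 74 of the 12499 genes in the table. HaCaT is an immortalized line of human keratinocytes. All cells were infected with a lentivirus for 48 hours, either a negative control (LV-NC) or one carrying *ATF7* (LV-*ATF7*), and were then kept in high glucose for 24 hours, so both groups had been exposed to virus and to high glucose. Poly(A) mRNA was sequenced in 3 libraries per group. Both groups come from 1 cell line, and nothing in the labels says that the replicates were separate cultures, so p-values measure only the spread between these libraries.

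Chaperones bind unfolded protein and let it fold, or hand it on for degradation. HSP70 proteins work in cycles of ATP hydrolysis that J-proteins start and nucleotide exchange factors end, and HSP90 takes over late-folding clients such as kinases and steroid receptors. Each compartment has its own set: *HSPA8* and the HSP90 pair in the cytosol, *HSPA5* (BiP) and *HSP90B1* (GRP94) in the ER, *HSPA9* and the *HSPD1*/*HSPE1* chaperonin in mitochondria. *HSF1* switches on the cytosolic genes after heat or proteotoxic stress, and the unfolded protein response, through *ATF6*, *XBP1* and *ATF4*, switches on the ER genes.

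Sequencing gave 17009232, 18287923 and 16686472 counts for LV-NC replicates 1, 2 and 3, as labeled, and 18666696, 20562768 and 19637712 for those labeled LV-*ATF7*. *ATF7* itself went against the labels: it stood at 50.6, 46.4 and 52.2 CPM (counts scaled to library size by TMM) under the LV-NC label and at 21.9, 25.7 and 28.0 CPM under the LV-*ATF7* label, a log2 fold change of -0.98 (SE 0.12, adjusted p = 1.89e-04). Of the exon bases of *ATF7*, 18.2% are shared with other annotated genes on the same strand and 27.1% on the opposite strand, and whether the counts take in the lentiviral transcript was not tested. Every direction below therefore rests on labels that the *ATF7* counts go against, and "higher" and "lower" describe the libraries labeled LV-*ATF7* relative to those labeled LV-NC. LV-NC replicate 1 stood apart from the other libraries labeled LV-NC: it was over 1.25 times above both of them for 10 members, below both by that factor for 22 and neither for 42. Keratinocyte markers (14 of 14 in the table, none at 0) summed to 2228 to 2998 CPM in LV-NC and 7653 to 8319 CPM in LV-*ATF7*. At an adjusted p under 0.05, 8 were higher, 2 lower and 4 in neither direction, beside 34.7% higher and 32.9% lower over all genes tested. Means were 266 and 3354 CPM for *KRT5*, 15.5 and 231 CPM for *TP63*, and 8.06 and 1.55 CPM for *KRT14*. LV-NC replicates 1, 2 and 3 were far apart for *KRT14* (0.375, 12.5 and 11.3 CPM) and *KRT6A* (1.28, 95.1 and 92.8 CPM). *KRT6A* was at 19.2, 19.9 and 19.1 CPM in LV-*ATF7*. Of other cell types, 3 of 10 fibroblast markers had a row (35.1 to 42.7 against 17.4 to 21.8 CPM summed), 3 of 10 monocyte and macrophage markers (5.57 to 8.13 against 9.38 to 12.7 CPM) and 2 of 6 melanocyte markers (17.5 to 24.8 against 12.2 to 13.0 CPM). Within these lists the markers went both ways: *CD14* was at a mean of 1.61 and 8.17 CPM and *CSF1R* at 2.79 and 0.611 CPM, and *PMEL* was at 2.05 and 4.51 CPM and *MITF* at 18.8 and 8.13 CPM. The part of these shifts in the chaperone results was not tested, and in bulk RNA fewer cells of a kind and less RNA per cell cannot be told apart.

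All 74 members passed the filter on low counts. With a threshold of 0.05 on the adjusted p (edgeR, quasi-likelihood, Benjamini-Hochberg over 12462 genes, as for every adjusted p here), 21 members were higher, 30 were lower and 23 passed in neither direction. Over all genes tested, 67.6% passed, 34.7% higher and 32.9% lower, beside 28.4% and 40.5% of the members. The same shares apply beside every count of called genes below that comes from this fit at this threshold alone. Where a 1.5-fold change was required too, 13 members were higher and 23 lower, where the shares over all genes were 28.2% and 24.6%. The groups did not overlap for 55 members, and for 72.7% of all genes tested. A lack of overlap was thus common, and it is given below only as a description of the libraries. The median log2 fold change was -0.21 over the members and 0.00016 over all genes tested. Scaled to library size alone, which shifts the median of all genes by -0.16, 26.9% of the members' calls were higher in place of 41.2%, and 29.1% of all genes were called higher and 39.6% lower. Without LV-NC replicate 1, 23 members were higher and 40 lower (39.9% and 40.2% of all genes), with a median of -0.30.

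Reads on the members made up 1.60%, 1.69% and 1.62% of all counts in LV-NC replicates 1, 2 and 3 and 1.14%, 1.12% and 1.09% in LV-*ATF7*. After scaling, the members summed to 14562, 16241 and 15621 CPM in LV-NC and to 11847, 11788 and 11846 CPM in LV-*ATF7*. The groups did not overlap in this sum. The difference of the means, LV-*ATF7* minus LV-NC, was -3648 CPM, of which *HSPA5* contributed -2042 CPM and *HSP90AA1* -1022 CPM. The other 72 members summed to 9445, 11352 and 10987 CPM in LV-NC and to 9991, 9972 and 10068 CPM in LV-*ATF7*. LV-NC replicate 1 was thus below every LV-*ATF7* library in this sum, and LV-NC replicates 2 and 3 were above every one.

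**Figure D1:**
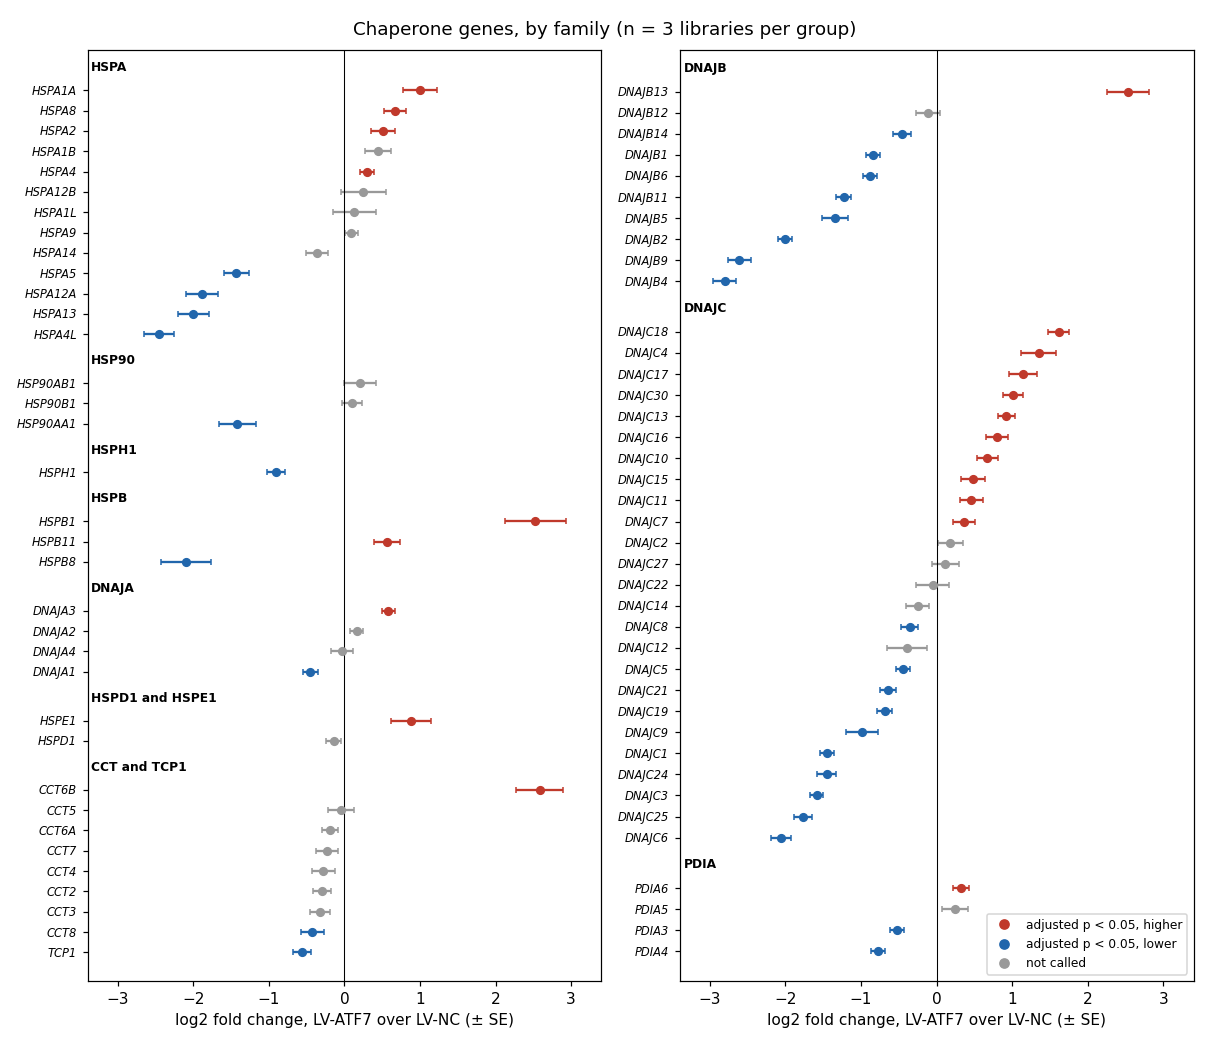
Log2 fold change of each of the 74 members, LV-*ATF7* over LV-NC, with its SE as a bar (n = 3 libraries per group), grouped by family and colored by call. The 10 DNAJB genes lie mostly on the lower side (8 lower, 1 higher), the DNAJC genes spread to both sides (10 higher, 10 lower), and the CCT subunits other than *CCT6B* lie between -0.56 and -0.05.

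ER chaperones were mostly lower. Of the 15 members on the list for the ER, 10 were lower, 2 were higher and 3 passed in neither direction. The shares over all genes tested were 32.9% lower and 34.7% higher. The 15 members had a median log2 fold change of -0.77. Their summed level fell from 5761 ± 685 CPM to 2999 ± 34.3 CPM (SD, n = 3), and *HSPA5* alone had a difference of means of -2042 CPM. *HSPA5* and *HSP90B1*, the HSP70 and the HSP90 of the ER lumen, are shown first because both promoters hold an ER stress element, *HSPA5* was lower and *HSP90B1* was not called. The element searched was CCAAT, 9 bases of any kind and CCACG, on either strand, and it is in capitals in these stretches of the 250 bases before the RefSeq start (GRCh38.p14). *HSPA5* is from chr9:125241366-125241434 on the minus strand and *HSP90B1* from chr12:103930191-103930364 on the plus strand.
HSPA5: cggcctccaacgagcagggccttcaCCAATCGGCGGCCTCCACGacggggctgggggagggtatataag
HSP90B1: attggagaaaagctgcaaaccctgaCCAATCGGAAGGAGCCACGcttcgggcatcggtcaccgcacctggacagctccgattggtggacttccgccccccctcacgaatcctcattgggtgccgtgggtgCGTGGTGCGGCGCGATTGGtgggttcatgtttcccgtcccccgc
The element was present in 0.0769% of 35116 promoter windows of 300 bases and in 2 of the 66 members with a window, these same genes. A match in the letters is a description and does not show that a factor bound there.

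*HSPA5* (ENSG00000044574, chromosome 9, 125234853 to 125241330, minus strand, GRCh38) encodes BiP, which binds nascent chains in the ER lumen and holds the stress sensors inactive. Its level was 4105, 2860 and 2777 CPM in LV-NC and 1198, 1194 and 1225 CPM in LV-*ATF7*. LV-NC replicate 1 was the highest library, and every LV-NC library was above every LV-*ATF7* library. *HSPA5* was 2.69-fold lower, a log2 fold change of -1.43 (SE 0.17, adjusted p = 1.44e-04), and -1.25 without LV-NC replicate 1. Per kilobase of exon, it was the highest member in LV-NC (831 CPM per kb, rank 13 among all genes) and stood at 309 CPM per kb, rank 87, in LV-*ATF7*. *HSP90B1* encodes GRP94, the ER HSP90 that folds integrins and Toll-like receptors. It was at 338, 448 and 412 CPM in LV-NC and at 467, 430 and 390 CPM in LV-*ATF7*. The groups overlapped, and the log2 fold change was 0.10 (SE 0.13, adjusted p = 0.501). It turned to -0.06 with library size scaling and to -0.02 without LV-NC replicate 1, neither past the threshold. Counts of *HSPA5* per count of *HSP90B1*, not corrected for length, were 12.2, 6.38 and 6.74 in LV-NC and 2.57, 2.78 and 3.14 in LV-*ATF7*. *HSPA13*, an HSP70-like ATPase of the microsomal fraction, was at 148, 112 and 105 CPM and at 37.6, 30.8 and 22.7 CPM, a log2 fold change of -1.998 (SE 0.21, adjusted p = 7.98e-05).

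Among the J-proteins that serve BiP, most fell with it. *DNAJB9* (ERdj4), which recruits BiP to the stress sensor IRE1, was at 109, 87.5 and 81.6 CPM in LV-NC and at 16.8, 16.1 and 12.7 CPM in LV-*ATF7*. At a log2 fold change of -2.61 (SE 0.16, adjusted p = 6.49e-06) it was the largest fall among the ER members. *DNAJC3*, which also inhibits the eIF2α kinases, was at 241, 222 and 224 CPM and at 78.5, 77.7 and 72.1 CPM (log2 fold change -1.59, SE 0.09). *DNAJB11* (ERdj3), a partner of BiP on unfolded substrates, was at 150, 143 and 142 CPM and at 68.3, 60.8 and 56.6 CPM (-1.23, SE 0.10). For these 3 genes the lowest LV-NC library was over the highest LV-*ATF7* library, and 72.7% of all genes tested had no overlap either. *DNAJC1*, a membrane J-protein near the translocon, had a log2 fold change of -1.45 (SE 0.09), and *DNAJC25* one of -1.77 (SE 0.12). For *DNAJC25*, 13.8% of exon bases are shared with the read-through gene *DNAJC25-GNG10*, and reads there cannot be assigned. *DNAJC10* (ERdj5), a J-protein with disulfide reductase activity that helps in degradation, went the other way: 97.6, 74.3 and 73.6 CPM in LV-NC and 144, 133 and 115 CPM in LV-*ATF7*, a log2 fold change of 0.67 (SE 0.14, adjusted p = 0.00327). *DNAJB14* and *DNAJB12* sit in the ER membrane with their J-domains toward the cytosol. *DNAJB14* was lower (-0.46, SE 0.12, adjusted p = 0.00999), and *DNAJB12* had a value of -0.11 (SE 0.16, adjusted p = 0.564), or -0.31 (adjusted p = 4.77e-04) without LV-NC replicate 1. *DNAJC16* and *DNAJC18*, which are also known at the ER membrane but were not on the ER list, were both higher (0.80 and 1.62) and are not in its counts.

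The protein disulfide isomerases, which form and shuffle disulfide bonds in the ER, were split. *PDIA3* (ERp57), the isomerase that works with calnexin and calreticulin, was at 636, 680 and 636 CPM in LV-NC and 437, 461 and 457 CPM in LV-*ATF7* (log2 fold change -0.53, SE 0.09, adjusted p = 0.00103). *PDIA4* (ERp72) was at 295, 342 and 336 CPM and 185, 192 and 193 CPM (-0.77, SE 0.09, adjusted p = 1.81e-04). For both, the lowest LV-NC library was above the highest LV-*ATF7* library. *PDIA6* (P5), which attenuates the stress sensors, was at 130, 164 and 157 CPM and 184, 185 and 194 CPM, a rise of 0.32 (SE 0.11, adjusted p = 0.0270). The call on *PDIA6* was lost with library size scaling (0.16, adjusted p = 0.155) and when any library labeled LV-*ATF7* or LV-NC replicate 3 was left out (0.30 to 0.34, adjusted p = 0.0631 to 0.0773). *PDIA5* had a value of 0.24 (SE 0.17, adjusted p = 0.245) and passed with limma voom (0.47, adjusted p = 4.41e-04) and when LV-NC replicate 1 was left out (0.40, adjusted p = 0.00492). *P4HB*, the founding protein disulfide isomerase, lies outside the symbol rule and had a value of -0.06 (adjusted p = 0.566).

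**Figure D2:**
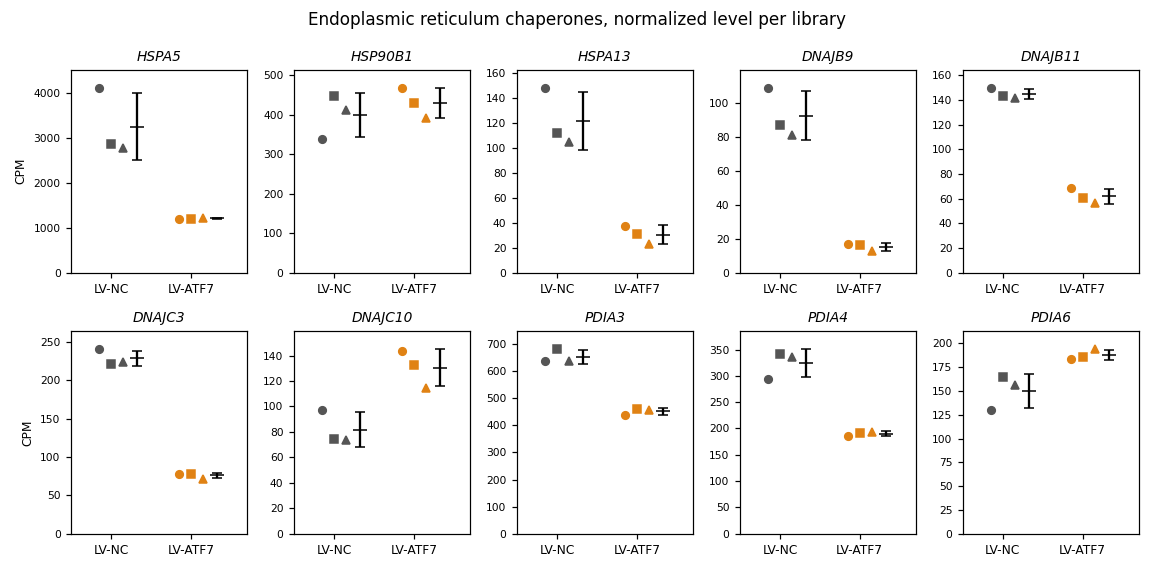
Level in CPM (vertical axis, from 0) of 10 ER chaperone and isomerase genes in each library labeled LV-NC (gray) or LV-*ATF7* (orange), with circles, squares and triangles for replicates 1, 2 and 3 and the mean ± SD at the right of each group. *HSPA5*, *HSPA13*, *DNAJB9*, *DNAJB11*, *DNAJC3*, *PDIA3* and *PDIA4* have all LV-NC libraries above all LV-*ATF7* libraries, *DNAJC10* and *PDIA6* the reverse, and *HSP90B1* overlaps.

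More genes were lower than higher in the lists of ER folding and stress genes outside the members. Of 32 genes for ER folding, redox and translocation, 17 were lower, 3 higher and 12 in neither direction, with a median of -0.52. *HYOU1*, a nucleotide exchange factor of BiP, had a log2 fold change of -1.50 (SE 0.10), *CALR* (calreticulin) -1.28 (SE 0.22), *CANX* (calnexin) -0.54 (SE 0.10) and *TMX4*, a membrane thioredoxin, -2.20 (SE 0.14). *FKBP2*, singled out after its values were seen, had 85, 80 and 71 counts in LV-NC and 1, 0 and 4 counts in LV-*ATF7*. *SERPINH1*, the collagen chaperone HSP47, was higher by 1.51 (SE 0.09), and *UGGT2*, which marks misfolded glycoproteins, by 1.05 (SE 0.14). In the list of 24 unfolded protein response genes, 20 were lower, 1 was higher and 3 passed in neither direction (median -0.90). *ATF6* was lower (-0.66, SE 0.08), as were *PPP1R15A*, the phosphatase subunit that restores translation (-2.35, SE 0.10), and *SELENOK* (-1.91, SE 0.14), while *ATF6B* was the 1 gene higher (0.43, SE 0.16, adjusted p = 0.0472). Without any 1 of the libraries labeled LV-*ATF7* replicates 1, 2 and 3, *ATF6B* gave adjusted p-values of 0.0967, 0.0881 and 0.141, and with library size scaling its value was 0.27 (adjusted p = 0.137). *XBP1* was at 406, 247 and 246 CPM in LV-NC and 234, 254 and 254 CPM in LV-*ATF7*, with a log2 fold change of -0.28 (SE 0.19, adjusted p = 0.234) with LV-NC replicate 1 the highest library; without it the value was -0.02 (adjusted p = 0.832). A list of 10 stress damage genes, 3 of them shared with the unfolded protein response list (*DDIT3*, *PPP1R15A* and *TRIB3*), had 8 lower and none higher, with *GADD45B* at -2.60 (SE 0.19) and *HMOX1* at -2.98 (SE 0.42).

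In the cytosol, the HSP70 genes *HSPA1A* and *HSPA8* were higher, and the stress-inducible HSP90 gene *HSP90AA1* was lower. The heat shock element that *HSF1* binds is built of alternating GAA and TTC units. A pair was searched as GAANNTTC or TTCNNGAA, and a triple as 3 alternating units with 2 bases between them, which contains 2 overlapping pairs; both strands are covered since each pair reads the same on the other strand. Stretches from the 250 bases before the RefSeq start of 5 members (GRCh38.p14, strand of the gene) are shown because *HSPA1A*, *HSPA8*, *HSPB1* and *HSPB8* moved in both directions with such a pair present. They are from chr6:31815412-31815469 (plus) for *HSPA1A*, chr6:31827608-31827665 (plus) for *HSPA1B*, chr11:123062154-123062386 (minus) for *HSPA8*, chr7:76302466-76302523 (plus) for *HSPB1* and chr12:119178818-119178875 (plus) for *HSPB8*. Capitals mark the matches.
HSPA1A: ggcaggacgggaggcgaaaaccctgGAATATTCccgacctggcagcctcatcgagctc
HSPA1B: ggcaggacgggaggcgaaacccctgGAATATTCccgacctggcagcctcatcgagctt
HSPA8: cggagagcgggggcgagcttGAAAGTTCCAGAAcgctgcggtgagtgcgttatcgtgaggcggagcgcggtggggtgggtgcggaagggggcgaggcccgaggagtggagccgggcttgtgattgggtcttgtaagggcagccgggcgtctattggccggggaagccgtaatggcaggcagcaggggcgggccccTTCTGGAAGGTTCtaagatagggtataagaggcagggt
HSPB1: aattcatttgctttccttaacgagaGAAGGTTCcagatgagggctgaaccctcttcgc
HSPB8: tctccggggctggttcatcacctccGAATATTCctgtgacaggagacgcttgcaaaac
The pair was present in 13.5% of all windows and in 13 of the 66 members with one, of which 5 were higher, 4 lower and 4 in neither direction. No pair was matched in the windows of *HSP90AA1*, *HSPH1*, *DNAJB1* and *DNAJB4*, which were all lower. The lower genes *TCP1*, *DNAJA1*, *DNAJB6* and *HSPB8* held a pair, and most members with a window held none, whether higher, lower or neither. The search allowed no mismatch in the GAA and TTC units. Neither a match nor its absence shows whether a factor bound there. The triple was in 0.490% of all windows and in *HSPA8*, *DNAJA1* and *DNAJB6*, of which *HSPA8* was higher and the others lower. The cAMP response element TGACGTCA, was in 1.85% of all windows and in 1 member, *DNAJC27*, which had a log2 fold change of 0.12 (adjusted p = 0.582).

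*HSPA8*, the constitutive HSP70 that also uncoats clathrin vesicles, was at 374, 548 and 508 CPM in LV-NC and at 740, 758 and 770 CPM in LV-*ATF7*. The log2 fold change was 0.67 (SE 0.15, adjusted p = 0.00408), and no library of one group reached the other. *HSPA1A*, a stress-inducible HSP70, was at 50.2, 95.5 and 92.6 CPM and at 160, 152 and 163 CPM (log2 fold change 0.998, SE 0.22, adjusted p = 0.00439). Its near-identical neighbor *HSPA1B* was at 61.6, 97.2 and 96.6 CPM and at 109, 111 and 126 CPM (0.44, SE 0.18, adjusted p = 0.0540), and it passed without LV-NC replicate 1 (0.23, adjusted p = 0.00834) or replicate 2 (0.52, adjusted p = 0.0415). Reads cannot be assigned with certainty between this pair, and 36.5% of the exon bases of *HSPA1B* are shared with another annotated gene. Summed, the pair rose by 0.74 (SE 0.20, adjusted p = 0.0104). Counts of *HSPA1A* and *HSPA1B* per count of *HSPA8* were 0.299, 0.351 and 0.373 in LV-NC and 0.364, 0.348 and 0.376 in LV-*ATF7*, so the inducible and constitutive genes kept overlapping ratios.

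Other HSPA genes were further apart. *HSPA4L*, of the HSP110 type that exchanges nucleotide on HSP70, was at 48.6, 63.9 and 57.7 CPM and at 12.5, 11.1 and 7.52 CPM (-2.45, SE 0.20, adjusted p = 2.36e-05). *HSPA12A*, a distant HSP70 relative, was at 114, 67.5 and 68.5 CPM and at 22.5, 23.7 and 21.2 CPM (-1.89, SE 0.21, adjusted p = 1.13e-04). Both had all LV-NC libraries above all LV-*ATF7* libraries. *HSPA4*, another HSP110-type exchange factor, was higher by 0.30 (SE 0.10, adjusted p = 0.0220), and *HSPA2*, another HSP70, by 0.51 (SE 0.16, adjusted p = 0.0215). *HSPA2* lost its call without any 1 library labeled LV-*ATF7* or LV-NC replicate 2 (0.48 to 0.53, adjusted p = 0.0559 to 0.0688), and *HSPA4* without LV-*ATF7* replicate 1 or 2 or LV-NC replicate 3 (0.27 to 0.28, adjusted p = 0.0817 to 0.0965). With library size scaling both calls were lost as well, at 0.35 for *HSPA2* (adjusted p = 0.0683) and 0.14 for *HSPA4* (adjusted p = 0.217). *HSPA14* had a value of -0.37 (SE 0.15, adjusted p = 0.0515) and passed without LV-NC replicate 1 (-0.50). *HSPH1* (HSP105), a stress-induced exchange factor, was at 189, 251 and 241 CPM and at 130, 117 and 117 CPM (-0.91, SE 0.12, adjusted p = 3.36e-04).

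The cytosolic HSP90 genes moved apart from each other. *HSP90AA1* (ENSG00000080824, chromosome 14, 102080738 to 102139699, minus strand), the stress-inducible form, was at 1012, 2029 and 1857 CPM in LV-NC and at 658, 621 and 552 CPM in LV-*ATF7*. It was 2.67-fold lower (log2 fold change -1.42, SE 0.24, adjusted p = 0.00115). LV-NC replicate 1 was the lowest of its group yet above every library labeled LV-*ATF7*, and without it the value was -1.69. *HSP90AB1*, the constitutive form, was at 999, 1800 and 1745 CPM and at 1725, 1722 and 1802 CPM (0.21, SE 0.21, adjusted p = 0.407). Without LV-NC replicate 1 the value for *HSP90AB1* was -0.04 (adjusted p = 0.547), and the other LV-NC libraries lay inside the range of LV-*ATF7*. Counts of *HSP90AA1* per count of *HSP90AB1* were 1.01, 1.13 and 1.06 in LV-NC, with LV-NC replicate 1 no exception, and 0.382, 0.361 and 0.306 in LV-*ATF7*. The ratio thus separated the groups with a mean of 1.07 ± 0.06 (SD, n = 3) against 0.350 ± 0.039 (SD, n = 3).

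The small heat shock proteins hold unfolded protein without using ATP, and the members with this name went both ways. *HSPB1* (HSP27, ENSG00000106211, chromosome 7, 76302544 to 76304295, plus strand), which rises as keratinocytes differentiate, was at 219, 78.4 and 74.2 CPM in LV-NC and at 687, 674 and 781 CPM in LV-*ATF7*. LV-NC replicate 1 was the highest of its group and below every LV-*ATF7* library. *HSPB1* was 5.77-fold higher (log2 fold change 2.53, SE 0.41, adjusted p = 7.96e-04), and without LV-NC replicate 1 the value was 3.20. *HSPB8*, which works with *BAG3* in selective autophagy, was at 8.89, 20.8 and 21.4 CPM and at 3.80, 4.49 and 3.65 CPM (-2.09, SE 0.33, adjusted p = 7.67e-04). Counts of *HSPB1* per count of *HSPB8* were 24.6, 3.78 and 3.46 in LV-NC and 181, 150 and 214 in LV-*ATF7*. *HSPB11*, a subunit of the intraflagellar transport machinery despite its name, was at 7.92, 8.23 and 5.79 CPM and at 10.8, 10.6 and 11.2 CPM (0.57, SE 0.17, adjusted p = 0.0178), a call lost with library size scaling (0.40) and without LV-*ATF7* replicate 1 or 3 or LV-NC replicate 3 (0.38 to 0.57, adjusted p = 0.0528 to 0.0732).

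Of the cytosolic J-proteins of types A and B, which bring substrates to HSP70, 6 were lower. *DNAJA2* and *DNAJA4* passed in neither direction, and *DNAJB13*, described below, was higher. The shares over all genes tested were 32.9% lower and 34.7% higher. *DNAJB1* (HSP40), the main partner of stress-induced HSP70, was at 565, 516 and 505 CPM in LV-NC and at 289, 287 and 312 CPM in LV-*ATF7* (-0.84, SE 0.09, adjusted p = 1.17e-04). *DNAJB4* was at 28.4, 27.8 and 32.4 CPM and at 4.52, 4.59 and 3.54 CPM, at -2.81 (SE 0.16, adjusted p = 4.39e-06) the largest fall among the members. *DNAJB2*, which carries ubiquitin-interacting motifs, was at 178, 201 and 192 CPM and at 45.2, 48.6 and 48.2 CPM (-2.01, SE 0.09). The groups did not overlap for any of these 3, nor for 72.7% of all genes tested. *DNAJB6*, a suppressor of aggregation, and *DNAJB5* had log2 fold changes of -0.88 and -1.35. *DNAJA1*, a farnesylated J-protein, was at 139, 165 and 163 CPM and at 115, 116 and 110 CPM (-0.45, SE 0.10, adjusted p = 0.00363). *DNAJA2* and *DNAJA4* had values of 0.16 and -0.03 (adjusted p = 0.128 and 0.855). Of the 10 DNAJB genes, 8 were lower, with *DNAJB12* in neither direction. The exception was *DNAJB13*, a protein of the ciliary axoneme with a mean of 37.0 counts, which was higher at 0.482, 0.472 and 0.810 CPM in LV-NC and 3.52, 3.26 and 3.48 CPM in LV-*ATF7* (2.54, SE 0.28).

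**Figure D3:**
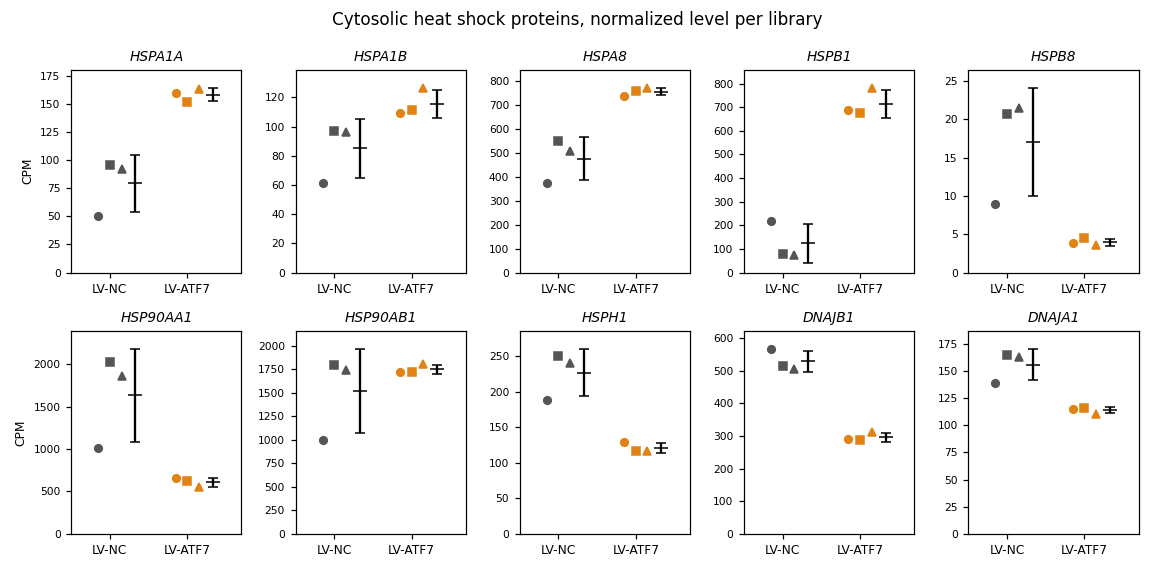
Level in CPM (vertical axis, from 0) of 10 cytosolic heat shock genes in each library labeled LV-NC (gray) or LV-*ATF7* (orange), with circles, squares and triangles for replicates 1, 2 and 3 and the mean ± SD beside each group. *HSPA1A*, *HSPA8* and *HSPB1* are higher and *HSPB8*, *HSP90AA1*, *HSPH1*, *DNAJB1* and *DNAJA1* lower in LV-*ATF7*, and the circle of LV-NC replicate 1 lies away from the other replicates in most panels.

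A list of 13 members linked to the heat shock response, in which *HSPA8* is the constitutive HSP70 noted above, had 4 higher (*HSPA1A*, *HSPA8*, *HSPB1* and *HSPE1*), 6 lower (*HSP90AA1*, *HSPH1*, *HSPB8*, *DNAJB1*, *DNAJB4* and *DNAJA1*) and 3 in neither direction, with a median of -0.14. *HSPA6*, the strictly inducible HSP70, had no row in the deposited counts and so could not be tested. The heat shock factors and their regulators were mostly higher. *HSF1* was at 134, 128 and 129 CPM in LV-NC and at 193, 197 and 218 CPM in LV-*ATF7* (0.64, SE 0.09, adjusted p = 3.37e-04), *HSF4* was higher by 0.89 (SE 0.20), *HSBP1*, a factor that binds *HSF1*, by 0.74 (SE 0.15), and *HSF2BP*, a binding partner of *HSF2* with a mean of 38.7 counts, by 2.38 (SE 0.41). *HSF2* was lower (-0.67, SE 0.15, adjusted p = 0.00390). Of the exon bases of *HSF4*, 31.4% are shared with another annotated gene on the same strand. In the list of 26 HSP70 and HSP90 cochaperones tested, 11 were lower, 3 higher and 12 in neither direction (median -0.37). Without LV-NC replicate 1 there were 20 lower and 3 higher, beside 40.2% lower and 39.9% higher over all genes. The HSP90 immunophilins were split: *FKBP4* was higher (1.08, SE 0.10), and *FKBP5* (-2.04, SE 0.22) and *PPID* (-1.29, SE 0.14) were lower. *ST13* (HIP), which stabilizes HSP70 on its substrate, was higher by 0.88 (SE 0.09).

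The cytosolic chaperonin is a ring of 8 different subunits that folds actin, tubulin and WD40 proteins. Of the 8 ubiquitous subunits, 2 were lower, none was higher and 6 passed in neither direction. *TCP1* (CCT1) was at 163, 220 and 216 CPM in LV-NC and at 133, 136 and 136 CPM in LV-*ATF7* (-0.56, SE 0.12, adjusted p = 0.00409). *CCT8* was at 98.1, 144 and 135 CPM and at 99.2, 94.6 and 87.2 CPM (-0.42, SE 0.15, adjusted p = 0.0331), with LV-NC replicate 1 inside the range of LV-*ATF7*. *CCT8* lost its call without any 1 library other than LV-NC replicate 1 (-0.35 to -0.47, adjusted p = 0.0633 to 0.116). *CCT2* and *CCT3* had values of -0.30 (SE 0.12, adjusted p = 0.0503) and -0.32 (SE 0.14, adjusted p = 0.0641). *CCT4*, *CCT7*, *CCT6A* and *CCT5* followed at -0.28, -0.23, -0.20 and -0.05 (adjusted p = 0.134, 0.198, 0.130 and 0.816).

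The number of subunits called depended on LV-NC replicate 1. The 8 subunits summed to 1679 CPM in that library, beside 2302 and 2228 CPM in LV-NC replicates 2 and 3 and 1717, 1714 and 1727 CPM in LV-*ATF7*. The subunits were thus together at the level of LV-*ATF7* in LV-NC replicate 1, and above it in the other libraries labeled LV-NC. Without that library, all 8 were lower, from -0.71 for *TCP1* (adjusted p = 8.33e-10) to -0.26 for *CCT5* (adjusted p = 8.55e-04). Calls were more common over all genes in that fit too, at 39.9% higher and 40.2% lower, beside 34.7% and 32.9% with all libraries. Per kilobase of exon, the levels of the subunits in LV-NC ran from 35.7 CPM per kb for *CCT4* to 114 CPM per kb for *CCT6A*, and in LV-*ATF7* from 27.4 for *TCP1* to 99.5 CPM per kb for *CCT6A*, although the subunits are equal in number in the ring. The exon length takes in every annotated transcript, so this spread between subunits depends on the annotation too. *CCT6B*, the testis form of the sixth subunit, was at 2.09, 0.786 and 1.39 CPM in LV-NC and at 8.43, 9.63 and 7.52 CPM in LV-*ATF7* (2.58, SE 0.31, adjusted p = 1.78e-04), and per kilobase it stayed at 0.328 and 1.97 CPM per kb. The cofactors of the chaperonin were lower for 5 of 12 genes and higher for 1 (median -0.43): the prefoldin subunit *PFDN1* (-0.90, SE 0.14) and *PDRG1* (-0.93, SE 0.10) were lower, and *URI1*, of the prefoldin-like complex, was higher (0.90, SE 0.15).

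**Figure D4:**
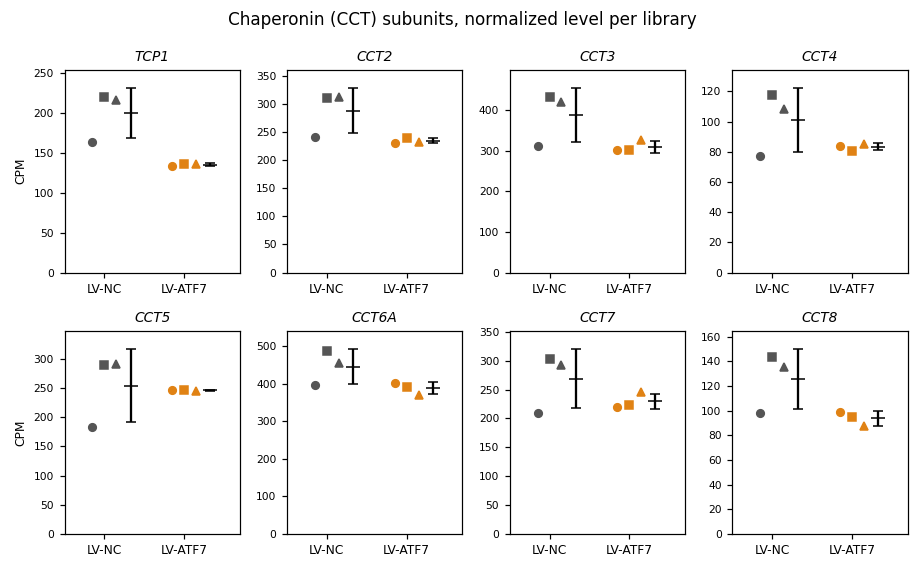
Level in CPM (vertical axis, from 0) of the 8 ubiquitous chaperonin subunits in each library labeled LV-NC (gray) or LV-*ATF7* (orange), with circles, squares and triangles for replicates 1, 2 and 3 and the mean ± SD beside each group. The circle of LV-NC replicate 1 lies near the LV-*ATF7* libraries for most subunits, and the other LV-NC libraries lie above the LV-*ATF7* libraries for all 8.

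Mitochondrial members went the other way from those of the ER in count. Of 8, 5 were higher, 1 was lower and 2 passed in neither direction, with a median of 0.47. The shares over all genes tested were 34.7% higher and 32.9% lower. Where a 1.5-fold change was required too, 2 of the 8 were higher and 1 was lower, beside 28.2% higher and 24.6% lower over all genes. The calls on *HSPE1*, *DNAJC11* and *DNAJC15* were lost in some alternatives, as given below. *HSPA9* and *HSPD1*, at the highest CPM of the 8, were those in neither direction. *HSPA9* (mortalin), the HSP70 of the matrix and the import motor, was at 441, 459 and 456 CPM in LV-NC and at 492, 489 and 463 CPM in LV-*ATF7* (0.09, SE 0.09, adjusted p = 0.369), and its sign turned with library size scaling (-0.07). *HSPD1* (HSP60) was at 384, 449 and 419 CPM and at 393, 385 and 358 CPM (-0.14, SE 0.10, adjusted p = 0.231), with -0.22 (adjusted p = 0.00569) without LV-NC replicate 1. The groups overlapped for *HSPD1* and lay side by side without overlap for *HSPA9*. *HSPE1* (HSP10), the lid of HSP60, was at 1.82, 3.56 and 2.49 CPM and at 4.47, 4.74 and 5.31 CPM (0.88, SE 0.26, adjusted p = 0.0170). The call on *HSPE1* was lost without LV-*ATF7* replicate 3 (0.81, adjusted p = 0.0675) or LV-NC replicate 3 (0.80, adjusted p = 0.0540). *HSPE1* shares 9.71% of its exon bases with the read-through gene *HSPE1-MOB4* and 14.2% with *HSPD1* on the opposite strand, and how the authors treated such reads is not given in the sources used here. *DNAJA3*, the matrix J-protein of *HSPA9*, was at 98.0, 94.5 and 97.8 CPM and at 134, 145 and 155 CPM (0.58, SE 0.09, adjusted p = 6.53e-04).

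Of the DNAJC genes in mitochondria, *DNAJC30* was higher (1.01, SE 0.13), *DNAJC19*, of the import motor, was lower (-0.69, SE 0.10), and *DNAJC11* and *DNAJC15* were higher by 0.46 and 0.48 (adjusted p = 0.0229 and 0.0250). *DNAJC11* lost its call with library size scaling (0.30) and without any 1 library labeled LV-*ATF7* (0.43 to 0.49, adjusted p = 0.0531 to 0.0795). *DNAJC15* lost it with library size scaling (0.32) and without LV-*ATF7* replicate 1 or 2 or LV-NC replicate 2 or 3 (0.40 to 0.49, adjusted p = 0.0625 to 0.0983). In the list of 17 mitochondrial proteostasis genes, 6 were higher, 4 lower and 7 in neither direction (median 0.18). *LONP1*, the matrix protease, was at 76.2, 55.6 and 56.1 CPM and at 218, 219 and 247 CPM (1.86, SE 0.14), and *TOMM20*, an import receptor, was higher by 1.73 (SE 0.09). *TRAP1*, the mitochondrial HSP90, which is outside the rule for naming genes and was singled out after its values were seen, was higher by 1.28 (SE 0.10). *CLPB*, a disaggregase of the intermembrane space, was lower (-1.03, SE 0.15), as was the receptor *TOMM70* (-0.79, SE 0.09).

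The other DNAJC genes, which tie HSP70 to single tasks, moved both ways. The largest fall was of *DNAJC6* (auxilin), which uncoats clathrin vesicles with *HSPA8*: 27.2, 25.1 and 30.5 CPM in LV-NC and 6.53, 6.63 and 6.69 CPM in LV-*ATF7* (-2.06, SE 0.13, adjusted p = 8.05e-06). *DNAJC24*, of diphthamide synthesis, was lower (log2 fold change -1.46), as were *DNAJC9*, a histone chaperone (-0.99), *DNAJC21*, of ribosome biogenesis (-0.64), and *DNAJC5*, the cysteine string protein of secretory vesicles (-0.44). *DNAJC8*, a splicing protein, was lower as well (-0.36, SE 0.11, adjusted p = 0.0190), a call lost without LV-*ATF7* replicate 2 or 3 or LV-NC replicate 2 (-0.29 to -0.37, adjusted p = 0.0583 to 0.0618). Of exon bases of *DNAJC9*, 28.6% overlap genes on the opposite strand. Other members had shares of 34.9% (*DNAJC14*), 30.1% (*CCT5*), 27.9% (*DNAJC11*), 26.1% (*DNAJC17*), 25.2% (*PDIA6*) and 23.0% (*DNAJB13*). The strandedness of the counts is not given in the sources used here.

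The largest rises of the DNAJC genes were in genes of low level. *DNAJC18* was at 10.4, 8.75 and 8.51 CPM in LV-NC and at 25.5, 30.5 and 28.98 CPM in LV-*ATF7* (1.62, SE 0.14, adjusted p = 3.33e-05). *DNAJC4* was at 8.94, 5.08 and 5.62 CPM and at 13.9, 17.7 and 18.5 CPM (1.35, SE 0.24, adjusted p = 0.00127), and 10.6% of its exon bases are shared with *NUDT22*. *DNAJC17*, a splicing protein, was at 4.87, 5.66 and 3.99 CPM and at 11.1, 9.48 and 11.7 CPM (1.14, SE 0.18, adjusted p = 7.31e-04). None of these 3 had overlapping groups, which held for 72.7% of all genes tested. *DNAJC13* (RME-8), which acts on endosomes, was higher by 0.92 and *DNAJC16* by 0.80, and *DNAJC7*, which holds HSP70 and HSP90 clients, by 0.36 (adjusted p = 0.0487). The call on *DNAJC7* was lost without any 1 library labeled LV-*ATF7* or LV-NC replicate 3 (0.36 to 0.38, adjusted p = 0.0806 to 0.117), with library size scaling (0.20) and with at least 10 counts in every library (0.35). *DNAJC2*, *DNAJC12*, *DNAJC14*, *DNAJC22* and *DNAJC27* passed in neither direction, and *DNAJC14* passed without LV-NC replicate 1 (-0.41, adjusted p = 5.33e-04).

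**Figure D5:**
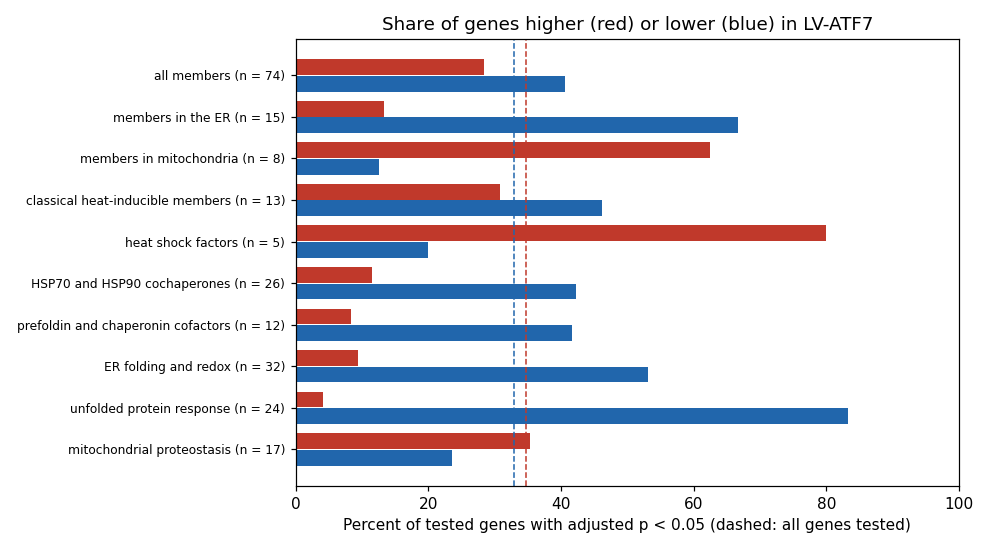
Percent of tested genes in each group (number tested in parentheses) that were higher (red bars) or lower (blue bars) in LV-*ATF7* at an adjusted p under 0.05, with dashed lines at the shares over all genes tested, 34.7% higher and 32.9% lower. The lower share reaches 66.7% for members in the ER and 83.3% for unfolded protein response genes, and the higher share 62.5% for members in mitochondria.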

How the data were processed

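RNA-seq libraries of HaCaT cells were analyzed, 3 labeled LV-NC and 3 labeled LV-*ATF7*. The deposited table holds unnormalized read counts, the authors' FPKM values and columns of their own comparison (fold changes and p-values), of which only the counts were used. The submitters' processing notes name the build GRCh38. The aligner, counting program, annotation and strandedness are not given in the sources used here, and the smallest row of the table held 51 counts over the 6 libraries. The symbol was blank for 33 genes, which stayed in the fit.

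Counts were tested with edgeR 4.0.16 in R 4.3.3 (filterByExpr, TMM scaling, glmQLFit and glmQLFTest, no covariates, Benjamini-Hochberg adjustment, threshold 0.05) over all 12462 genes that passed the filter, and only the members and listed genes are printed. The SE is the size of the log2 fold change divided by the square root of F. CPM was scaled by TMM. Levels per kilobase use the length of the merged exons of all transcripts of a gene in GENCODE release 29, in which 12485 identifiers and all 74 members were found. Promoter windows (250 bases before to 50 after the start) are from RefSeq, GRCh38.p14. Of the members, 66 had one, and *CCT6A*, *DNAJC1*, *DNAJC22*, *DNAJC24*, *HSPA12B*, *HSPA14*, *HSPB11* and *PDIA3* did not. Motif matches were counted with no test.

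Alternatives were DESeq2 1.42.0, library size and upper quartile scaling, the filter dropped or raised to 10 counts per library, limma 3.58.1 (voom with quality weights per sample), a replicate block, each library left out, a fold of at least 1.5, median centring, and *HSPA1A* and *HSPA1B* summed. The rule for naming genes took, with a mean of at least 50 counts, up to 3 members per family and direction and up to 2 genes per list and direction by log2 fold change, plus the main chaperones and regulators. Members beyond it are named so that each family is described whole. Although the rule reads symbols alone, this set of symbols and the lists were chosen with earlier results of these data known. Figures were drawn in Python 3.11.15.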

Additional observations from a re-analysis of the deposited data

How the results depend on the processing

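Of the 51 members called, all 51 kept their direction and 41 kept the call in each of the 13 alternatives that gave a value. The other 10 were *CCT8*, *DNAJC7*, *DNAJC8*, *DNAJC11*, *DNAJC15*, *HSPA2*, *HSPA4*, *HSPB11*, *HSPE1* and *PDIA6*. The number of CCT genes called, 3, became 5 with DESeq2, 5 with at least 10 counts in every library, 8 with library size scaling and 9 with limma voom, and ranged from 2 to 9 when 1 library was left out, with 9 without LV-NC replicate 1. The shares over all genes moved too. They were 29.1% higher and 39.6% lower with library size scaling, and 39.9% and 40.2% without LV-NC replicate 1. For the other alternatives the shares over all genes are not given here. Of *HSPD1* and *HSPE1*, 1 was called, 2 with library size scaling or limma voom, and 0 to 2 with 1 library left out. Requiring a fold of at least 1.5 left 13 members higher, 1 CCT gene, 0 DNAJA genes and 1 PDIA gene, beside 28.2% of all genes higher and 24.6% lower. Signs turned in at least 1 alternative for 9 members, none of them among the calls of the report: *DNAJA2*, *DNAJA4*, *DNAJC22*, *DNAJC27* and *HSPA1L*, which are outside the naming rule, and 4 within it. These were *HSP90AB1* with limma voom (-0.0119), *HSP90B1* and *HSPA9* with library size scaling (-0.0555 and -0.0720), and with 1 library left out *CCT5* (-0.259 to 0.0247), *HSP90AB1* (-0.0394 to 0.3196) and *HSP90B1* (-0.0233 to 0.168). The causes were not tested. Deviations from the group means were nearly uncorrelated between libraries with the same replicate number in the labels (0.06, -0.02 and 0.06). These values cannot settle whether libraries were paired, since LV-NC replicate 1 stood apart from its group. The library names of the 2 libraries labeled replicate 3 also differ in number. With a replicate block, 21 members were higher and 30 lower; *HSPA1B* then passed (0.47, adjusted p = 0.0234) and *DNAJC15* did not (0.48, adjusted p = 0.0629). Genes under about 50 counts, among them *DNAJB13* and *HSF2BP*, are limited by depth.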
